A study of Homo sapiens with 6 samples.

Results

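NR2F1 encodes the orphan nuclear receptor COUP-TF1, and the level of its mRNA was followed in METTL3-silenced retinal pigment epithelium (RPE) cells. The gene was taken as the entry whose gene name is NR2F1, which is 1 of the 7758 genes listed in the table. RNA sequencing was done on ARPE-19 cells, an established human RPE line, in 2 groups of 3 libraries. The sh-Control cells carried a scramble hairpin and the sh-METTL3 cells a hairpin against METTL3. All 6 cultures had been stimulated with lipopolysaccharide (LPS), an inflammatory component of the bacterial outer membrane. The dose was 1 μg/ml and the time 24 h, so no library shows the level of NR2F1 without LPS. The hairpins were delivered by lentivirus and the cells were selected with puromycin. The sources used here do not state if each library had its own infection, so the p-values measure only the spread between these libraries.

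NR2F1 belongs to the orphan nuclear receptors, which have the zinc-finger DNA-binding domain and the ligand-binding fold of the steroid and thyroid hormone receptors but no established physiological hormone. It binds DNA mainly as a dimer, on pairs of AGGTCA-like half-sites, and it can repress or activate the neighbouring gene. Together with its close relative NR2F2 it patterns the forebrain and the optic vesicle, where both receptors help the outer layer become RPE. METTL3 is the catalytic subunit of the enzyme that writes N6-methyladenosine (m6A) into mRNA at short motifs, of which GGACT in DNA letters is a common form, and m6A marks are known to influence how long an mRNA lasts. The comparison therefore asks what level the NR2F1 mRNA has when the methylase is silenced.

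The mRNA itself was examined for such motifs, since they are where the silenced enzyme can act. NR2F1 (ENSG00000175745) lies on GRCh38 chromosome 5, from 93583224 to 93594615 on the plus strand, and has 7 annotated transcripts, of which 4 are coding. Its longest coding transcript in GENCODE release 29 is 3841 bases long, with 1800 bases of 5 prime untranslated region, 1272 coding bases including the stop codon, and 769 bases of 3 prime untranslated region. The coding part encodes 423 residues. GGACT occurred 3 times on the sense strand of the transcript. The sites are shown as DNA, with 10 bases on each side and the motif in capitals.

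Site at transcript position 1002, 5 prime untranslated region, exon 1, chr5:93584225-93584229: actcctgctcGGACTccggcccggg
Site at transcript position 3134, 3 prime untranslated region, exon 3, chr5:93593904-93593908: cctgggccaaGGACTccaaagccgc
Site at transcript position 3479, 3 prime untranslated region, exon 3, chr5:93594249-93594253: atatggaagtGGACTgaagcctatg

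None of the 3 lay in the coding part, and 2 of them lay in the last exon. This gives 0.781 GGACT per kb of transcript. Over 6737 listed protein-coding genes the median density was 0.936 per kb, and 39.2% of those genes had a lower density than NR2F1. A GGACT was present in 92.9% of these transcripts, so its presence does not set NR2F1 apart. The median was 0.984 per kb over the 2881 genes higher in the sh-METTL3 cells and 0.901 per kb over the 3714 lower genes. A wider set of motifs was also searched on the sense strand. It added GGACA to GGACT. It also took in the motif GAACT. Its last member was GAACA, and sites of this set cannot overlap one another. NR2F1 held 13 sites, 3 in the 5 prime untranslated region, 5 in the coding part and 5 in the 3 prime untranslated region. That is 3.38 per kb, against a median of 4.35 per kb, and 21.6% of the genes were lower. A match to the motif is a description of the letters and does not show that the base is methylated. Methylation was not analysed here.

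The study designed 3 primer pairs to NR2F1, which show where along the transcript it was measured. Each primer matched the transcript 1 time.

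NR2F1 expression pair, forward: atcgtgctgttcacgtcagac
NR2F1 expression pair, reverse: tggctcctcacgtactcctc
NR2F1-1, forward: aagcactacggccaattcac
NR2F1-1, reverse: acttcttgaggcggcagtat
NR2F1-2, forward: accttgtgtctgtctggtga
NR2F1-2, reverse: ggcttcagtccacttccatatg

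The expression pair spans the junction of exons 2 and 3 in the coding part and gives a product of 104 bases, transcript positions 2773 to 2876, that holds no GGACT and no site of the wider set. The nearest GGACT is 258 bases away. The NR2F1-1 pair lies in exon 1, gives 151 bases of coding sequence from position 2086 to 2236, and holds no GGACT but 2 sites of the wider set. The NR2F1-2 pair lies in the 3 prime untranslated region, gives 162 bases from position 3328 to 3489, and holds 1 GGACT, the site at position 3479, which lies under the reverse primer. Counting that site, it too holds 2 of the wider set.

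**Figure D1:**
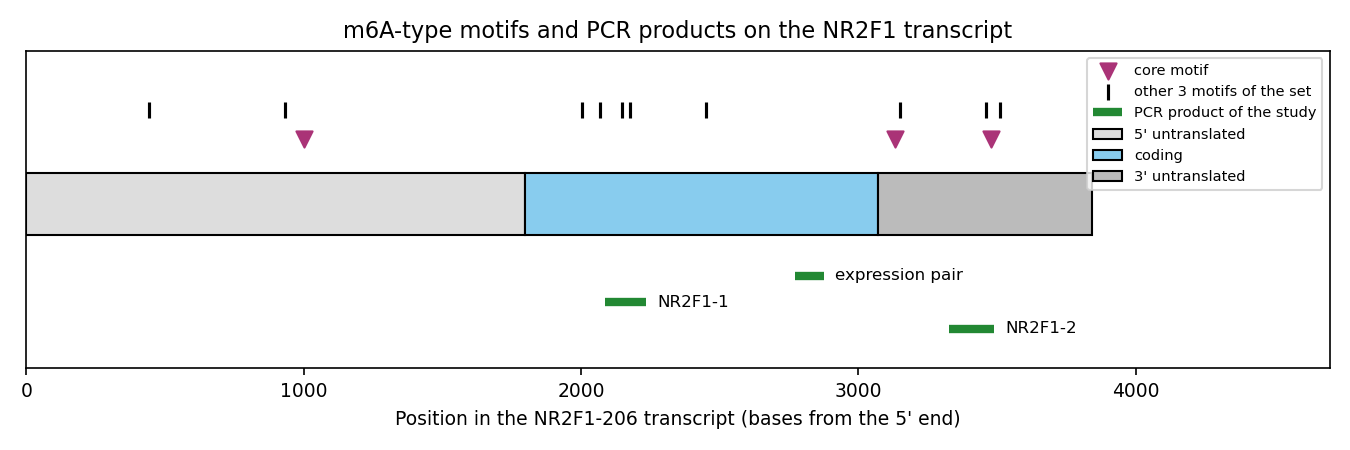
Map of the longest coding NR2F1 transcript, with position in bases from the 5 prime end on the horizontal axis. Triangles mark the 3 GGACT sites, ticks the sites of the other 3 motifs of the set, and green bars the 3 PCR products. GGACT is absent from the coding part, and the NR2F1-2 product reaches over the site at position 3479.

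The values are read counts that the authors had divided by 1 size factor per library, called scaled counts here. Each library had between 10898434 and 17750052 reads on listed genes, and no pair of libraries of a group agreed within sampling noise, with a chi-square per degree of freedom between 3.82 and 17.2. On principal components of log2(scaled count + 1), the groups lay apart on the first (89.8% of the variance). On the second (3.36%) sh-METTL3 replicate 3 was far from the others, so results are also given without it where it matters. Every listed gene had passed the authors' own test between the groups. NR2F1 was also picked by the study partly on these libraries, so its test below is a description of the size and spread of the change and not independent evidence for it. Of the 15 RPE markers examined, 8 were listed, and 5 were higher and 3 lower in the sh-METTL3 cells, all at an adjusted p under 0.05 by limma. By the same test 46.6% of all listed genes were higher and 51.3% lower. The log2 fold changes of the lower ones were -3.04 for SERPINF1, -1.80 for PMEL and -1.73 for BEST1, and those of the higher ones ran from 0.41 for KRT18 to 1.56 for RDH5. RPE65, RLBP1 and TYR were not listed, so their level is not known here. Of 11 markers of immune, endothelial, glial and photoreceptor cells, 1 was listed. It was CD14, at 24.7 to 25.9 scaled counts in sh-Control and 0 to 2.80 in sh-METTL3, and its part in the results was not tested.

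METTL3, the targeted gene, had 1154, 1108 and 1091 scaled counts in replicates 1, 2 and 3 of sh-Control. It had 966, 1001 and 765 in those of sh-METTL3. Every sh-METTL3 library lay below every sh-Control library, and the mean was 1118 ± 32.8 (SD, n = 3) in the controls and 911 ± 128 (SD, n = 3) in the silenced cells, a change of -18.5%. On the log2 scale the change was -0.30 (SE 0.097, Benjamini-Hochberg adjusted p 0.032 by limma). This call was lost in 7 of 17 alternative fits, among them the fit without each sh-Control library in turn, and the adjusted p over the alternatives ranged from 0.0108 to 0.318. The library with the lowest METTL3 was sh-METTL3 replicate 3, and without it the change was -0.18 on the log2 scale (adjusted p 0.04 by limma).

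NR2F1 was higher in the METTL3-silenced cells. Its scaled count in replicates 1, 2 and 3 of sh-Control was 3081, 3333 and 3551, from 3862, 3469 and 3799 reads. In those of sh-METTL3 it was 4739, 5094 and 6019, from 5079, 3953 and 5375 reads. The groups did not overlap, since the lowest silenced library was 1.33 times the highest control library. Among all listed genes 98.5% had groups that did not overlap, so this alone does not set NR2F1 apart. The mean rose from 3322 ± 235 (SD, n = 3) to 5284 ± 661 (SD, n = 3), an increase of 59.1%. The log2 fold change was 0.66 (SE 0.087, 95% confidence interval 0.47 to 0.86), which is 1.59-fold (1.39 to 1.81). The adjusted p was 0.000203 by limma with Benjamini-Hochberg adjustment over the 22977 tests that the table implies. An exact permutation test over the libraries (two-sided) gave p = 0.1, the smallest that 3 libraries against 3 allow. In these bulk samples, more cells expressing NR2F1 and more NR2F1 mRNA per cell cannot be told apart.

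The test threshold, an adjusted p of 0.05, was passed by 97.9% of the listed genes, 46.6% as higher and 51.3% as lower in the sh-METTL3 cells. This balance depended on the scaling. With DESeq2 3704 genes were higher and 2714 lower, with edgeR and RLE factors 3703 and 2871, and the median log2 fold change of all listed genes was -0.09 in place of -0.21. NR2F1 was in the middle of the listed genes by size of change. Its absolute log2 fold change was larger than that of 53.9% of them, the median being 0.62, and 46.8% of the 3704 genes with a positive log2 fold change had a smaller one.

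**Figure D2:**
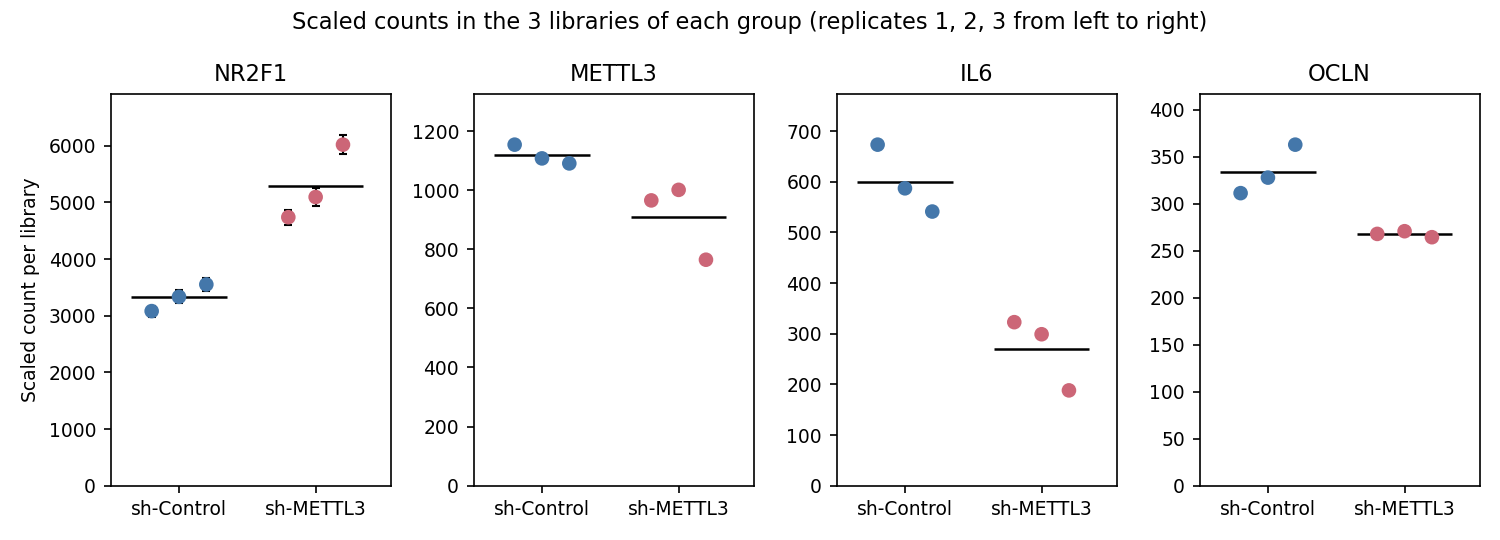
Scaled counts of NR2F1, METTL3, IL6 and OCLN in each library, with replicates 1, 2 and 3 from left to right in each group, group means as lines and, for NR2F1, 95% exact Poisson intervals as bars. NR2F1 runs from 3081 to 3551 in sh-Control and from 4739 to 6019 in sh-METTL3, while the other 3 genes lie lower in every sh-METTL3 library.

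The libraries differed in NR2F1 by more than counting error. The relative counting error of a library was 1.36% to 1.70%, and the coefficient of variation between libraries was 7.09% in sh-Control and 12.5% in sh-METTL3. The exact 95% Poisson intervals, which cover counting error only, were 2984 to 3180 for sh-Control replicate 1 and 3439 to 3666 for replicate 3, so these control libraries did not overlap. In the silenced group the interval of replicate 1 ended at 4871 and that of replicate 3 began at 5859. Among the 1254 listed genes with a mean of 2000 to 8000 scaled counts, the median coefficient of variation was 4.07% in sh-Control and 4.79% in sh-METTL3. Of these genes, 83.6% varied less than NR2F1 in sh-Control and 90.7% in sh-METTL3. NR2F1 was thus among the more variable genes of its level in both groups, and it was highest in sh-METTL3 replicate 3, the library that stood apart. Without that library the log2 fold change was 0.57 with an adjusted p of 5.66e-05 by limma.

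Per kb of exon, over 4314 exonic bases, NR2F1 had a level of 714, 773 and 823 in the control libraries and 1098, 1181 and 1395 in the silenced libraries. By this level it ranked between 728 and 625 of the 7758 listed genes in sh-Control and between 439 and 335 in sh-METTL3. Among the 493 listed genes with a transcription factor family it ranked 27, 26 and 22 in the controls and 15, 13 and 11 in the silenced cells. NR2F1 was therefore an abundant transcription factor mRNA in these cells under both conditions, as far as the listed genes show. NR2F1 took 0.0218%, 0.023% and 0.0248% of the reads on listed genes in sh-Control and 0.0338%, 0.0363% and 0.044% in sh-METTL3, so the order of the groups did not depend on the authors' size factors.

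Of the 48 genes of the nuclear receptor superfamily, 17 were listed, and all 17 passed the test, against 97.9% of all listed genes. NR2F1 and 4 others were higher and 12 were lower in the METTL3-silenced cells. The other 16 had a median log2 fold change of -0.58, and all listed genes had a median of -0.21. NR2F2, the receptor nearest to NR2F1, was not listed and was not analysed here. Per kb of exon, the level of NR2F1 was second among the 17 in each control library and first in each silenced library. PPARD, a fatty acid receptor, was above it in the controls, with a level of 1028 ± 65.2 (SD, n = 3) per kb against 770 ± 54.6 (SD, n = 3), and below it in the silenced cells, with 728 ± 57.2 against 1225 ± 153 (SD, n = 3). Next in the order came RXRB, at 481 ± 3.31 (SD, n = 3) and 552 ± 6.55 (SD, n = 3) per kb. These 3 levels differed by more than the spread between libraries in both groups. The lowest level in sh-Control was that of ESRRG, at 2.65 per kb.

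**Figure D3:**
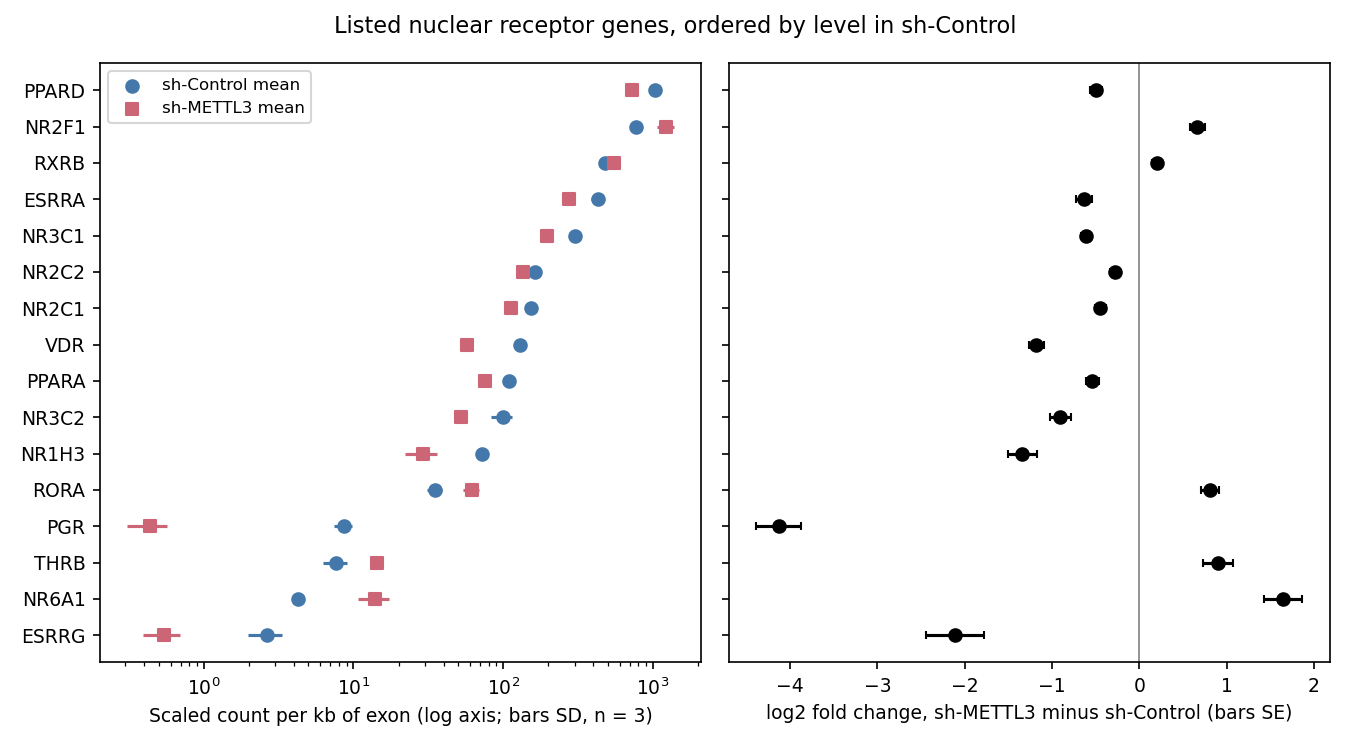
Of the 17 listed nuclear receptor genes, 16 are plotted, ordered by their level in sh-Control, with the mean scaled count per kb of exon on a log axis (left, bars SD, n = 3) and the log2 fold change (right, bars SE). NR2F1 rises from second to first, to a level above that of PPARD in either group, and it is 1 of 5 genes to the right of 0 in the right panel.

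The receptors that rose with NR2F1 have different ligands and partners. RORA, an orphan receptor of the circadian clock, had scaled counts of 523, 615 and 650 in sh-Control and 930, 1028 and 1181 in sh-METTL3. In both groups its libraries held the same order as those of NR2F1, and its log2 fold change was 0.81 (SE 0.106, adjusted p 0.000197 by limma). NR6A1, the germ cell nuclear factor, was weakly expressed and went from 29.5, 31.7 and 29.9 to 98.9, 76.0 and 123 scaled counts, with a log2 fold change of 1.65 (SE 0.218, adjusted p 0.000214 by limma). THRB, the thyroid hormone receptor beta, rose by 0.90 on the log2 scale (adjusted p 0.00219 by limma). RXRB, a retinoid X receptor and common dimer partner of other receptors, rose by 0.20 (adjusted p 0.00867 by limma), from 1889, 1897 and 1871 to 2189, 2168 and 2138 scaled counts. The size of its change depended on the scaling, and it was 0.32 with DESeq2 and with edgeR and RLE factors.

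Steroid receptors were among the genes that fell. PGR, the progesterone receptor, had 119, 126 and 153 scaled counts in sh-Control and 5.60, 9.02 and 5.60 in sh-METTL3, a log2 fold change of -4.13 (SE 0.26, adjusted p 1.56e-06 by limma). NR3C2, the mineralocorticoid receptor, had a log2 fold change of -0.90, and NR3C1, the glucocorticoid receptor, one of -0.61. NR3C1 was the most abundant of these, at 2706, 2723 and 2867 scaled counts in sh-Control and 1748, 1795 and 1872 in sh-METTL3 (adjusted p 1.26e-05 by limma). VDR, the vitamin D receptor, went from 788, 707 and 719 to 342, 327 and 307 scaled counts, and NR1H3, an oxysterol receptor, from 323, 328 and 335 to 107, 120 and 168. Their log2 fold changes were -1.18 and -1.34, while those of the fatty acid receptors PPARA and PPARD were -0.54 and -0.50. Of the orphan receptors that fell, ESRRG and ESRRA, relatives of the estrogen receptor, had log2 fold changes of -2.11 and -0.64.

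NR2C1 and NR2C2, the testicular orphan receptors, belong with NR2F1 and RXRB to subfamily 2 and also bind AGGTCA-like half-sites. NR2C1 had 1025, 991 and 995 scaled counts in sh-Control and 745, 765 and 698 in sh-METTL3, and its log2 fold change was -0.45 (SE 0.065, adjusted p 0.000402 by limma). NR2C2 had a log2 fold change of -0.28 (SE 0.0526, adjusted p 0.00197 by limma), and this call was lost with edgeR and RLE factors and with DESeq2. Of the 4 listed coding genes of the subfamily, NR2F1 and RXRB were thus higher and NR2C1 and NR2C2 lower in the silenced cells. NR2F2-AS1, an antisense noncoding RNA beside NR2F2 on chromosome 15, had 103, 121 and 119 scaled counts in sh-Control and 166, 161 and 178 in sh-METTL3, with a log2 fold change of 0.56 (SE 0.136, adjusted p 0.00863 by limma). The library kit does not mark strand, so reads on any bases shared with a gene of the other strand could not be told apart.

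Nuclear receptors act through coregulators, proteins that open or close chromatin at the bound gene. Of 27 coregulators and partners, 14 were listed and all 14 passed the test, against 97.9% of all listed genes, 4 as higher and 10 as lower. Their median log2 fold change was -0.30, against -0.21 over all listed genes. The largest fall was that of NSD1, a histone methyltransferase that binds nuclear receptors, from 3814, 3716 and 3746 to 2156, 2246 and 2526 scaled counts (log2 fold change -0.71). Of the genes that rose, TBL1X, a subunit of a corepressor complex, had a log2 fold change of 0.32. ZFPM2, a zinc-finger cofactor that binds COUP-TF receptors, had the largest at 2.28, but it rested on 0 to 3.99 scaled counts in sh-Control and 8.96 to 16.8 in sh-METTL3. With DESeq2 10 of the 14 passed, 4 higher and 6 lower, and 6418 of all 7758 listed genes did. The median of the 14 was then -0.18, against -0.09 over all listed genes. Without sh-METTL3 replicate 2, 12 passed, 2 higher and 10 lower. Leaving out each library in turn kept 6541 to 7290 of all 7758 listed genes past the test.

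In the early eye NR2F1 acts beside a small set of patterning genes, of which 7 of 25 were listed, 5 higher and 2 lower in the silenced cells. All 7 passed the test, against 97.9% of all listed genes, of which 46.6% were higher and 51.3% lower. Their median log2 fold change was 0.48, against -0.21 over all listed genes. RAX, a homeobox gene of the eye field, was at 0 in all 3 sh-Control libraries and at 380, 421 and 530 scaled counts in the sh-METTL3 libraries. LHX2, another homeobox gene of the optic vesicle, went from 225, 238 and 229 to 577, 573 and 653 (log2 fold change 1.37, SE 0.0922, adjusted p 2.43e-06 by limma). The lower genes were TFAP2A, a transcription factor of surface ectoderm and neural crest (log2 fold change -0.80), and CHD7, a chromatin remodeller (log2 fold change -0.73). NR2F1 with its change of 0.66 lay within the range of the higher genes. RAX and LHX2 were both highest in sh-METTL3 replicate 3, as NR2F1 was.

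NR2F1 is also known from dormant tumour cells, where it holds cells out of the cycle together with a group of other genes. Of 10 such genes 4 were listed and passed the test, as 97.9% of all listed genes did, and 1 was higher and 3 lower. Their median log2 fold change was -0.46, against -0.21 over all listed genes. BHLHE41, a repressor of the clock and a dormancy factor, went from 2246, 2225 and 2519 to 3258, 3581 and 3958 scaled counts, a log2 fold change of 0.62 (SE 0.0779, adjusted p 0.000143 by limma) that is close to that of NR2F1. TGFB2, a ligand of the transforming growth factor family, went the other way, from 19190, 21969 and 23333 to 14540, 15115 and 11757 (log2 fold change -0.64). TBX3, a T-box repressor, had a log2 fold change of -0.75. Members of the list that the table does not hold, such as RARB and SOX9, were not analysed here.

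Tight junction proteins and secreted interleukins were the study's readouts of METTL3 silencing, and their 5 mRNAs were all listed and all lower in the sh-METTL3 cells. Of all listed genes 97.9% passed the test, 51.3% as lower. IL6 had 673, 587 and 541 scaled counts in sh-Control and 323, 299 and 188 in sh-METTL3, with a log2 fold change of -1.18 (SE 0.182, adjusted p 0.00059 by limma). The library with the most NR2F1, sh-METTL3 replicate 3, had the least IL6 of the 6, and the library with the least NR2F1, sh-Control replicate 1, had the most. The groups did not overlap for either gene, as for 98.5% of all listed genes, so these extremes had to fall in opposite groups. Replicate 3 of sh-METTL3 is also the library that stood apart, and a link between NR2F1 and IL6 was not tested. OCLN, the gene of the tight junction protein Occludin, had 311, 328 and 363 scaled counts in sh-Control and 268, 271 and 264 in sh-METTL3. Its log2 fold change was -0.32 (SE 0.0996, adjusted p 0.0318 by limma), and this call was lost in 11 of 17 alternative fits, with an adjusted p between 0.0107 and 0.443. The other readouts changed more, with log2 fold changes of -1.17 for TJP1, the gene of ZO-1, -2.14 for IL1B and -2.20 for CXCL8, the gene of interleukin 8. These values are mRNA levels at 24 h of LPS, and secreted or total protein was not analysed here. For protein, the study reported less Occludin and ZO-1 but more secretion of these interleukins in METTL3-silenced ARPE19 cells with LPS. The interleukin mRNAs were thus lower where the reported secretion was higher.

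The promoters of NR2F1 and IL6 are printed because the study tested binding of NR2F1 at IL6. They are RefSeq promoter sequences of build GRCh38.p14 on the plus strand. The stretches hold no annotated exon of their gene. That of IL6 lies inside the annotated extent of the gene, which starts at 22725884 with an earlier exon. Capitals mark a half-site match at NR2F1 and an NF-kB-type GGATTTTCC at IL6.

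NR2F1, chr5:93582972-93583221: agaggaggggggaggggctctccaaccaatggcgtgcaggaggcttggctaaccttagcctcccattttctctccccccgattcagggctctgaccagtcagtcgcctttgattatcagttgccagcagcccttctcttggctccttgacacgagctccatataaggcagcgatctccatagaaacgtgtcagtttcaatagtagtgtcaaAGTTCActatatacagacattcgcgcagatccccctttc
IL6, chr7:22726950-22727146: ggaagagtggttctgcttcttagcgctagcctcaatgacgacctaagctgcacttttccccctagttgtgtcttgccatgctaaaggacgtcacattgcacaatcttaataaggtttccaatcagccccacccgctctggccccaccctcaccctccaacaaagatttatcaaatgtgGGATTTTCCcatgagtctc

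The windows searched were 300 bases long, 250 before and 50 after the start, and the motifs were AGGTCA and AGTTCA as half-sites on both strands. Matches of these motifs can share no more than an end base. NR2F1 held 1 AGTTCA in each of its 2 windows and no AGGTCA. IL6 and both windows of OCLN held neither, which says only that these letters are not in those windows. Over the first window of each of 27303 genes, 22.8% held at least 1 of the half-sites. The share was 15.1% among 2462 listed genes that were higher and 16.6% among 3019 that were lower. GGATTTTCC was present in 0.344% of the first windows and in that of IL6.

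NR2F1-AS1 is transcribed from the minus strand, from 93409359 to 93585648, and shares 2425 bases of its extent with NR2F1. The exons of both overlap over 158 bases, 3.66% of the exonic bases of NR2F1. The library kit named in the labels does not mark strand, so reads there cannot be told apart. NR2F1-AS1 was not listed and was not analysed here.

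The neighbourhood of NR2F1 on chromosome 5 did not move in 1 direction. Within 5 Mb of its start 16 other genes were listed, all past the test as 97.9% of all listed genes were, 8 higher and 8 lower. Their median log2 fold change was -0.01. Over the 355 other listed genes of chromosome 5, 44.2% were higher and 54.4% lower, with a median of -0.23. With DESeq2 or with edgeR and RLE factors 13 of the 16 passed, 8 higher and 5 lower, and the median turned to 0.11. Of all 7758 listed genes 6418 passed with DESeq2 and 6574 with edgeR and RLE factors, and their median was -0.09 in both. Over the 14 neighbours with a mean of at least 50 scaled counts the median was -0.30, against -0.25 over all listed genes with such a mean. FAM172A, from 93618069 to 94111699 on the minus strand, was the nearest listed gene. Its start lies 0.528 Mb downstream, but that is its far side, and its end faces the end of NR2F1 at 93594615. FAM172A had 441, 391 and 443 scaled counts in sh-Control and 717, 829 and 745 in sh-METTL3 (log2 fold change 0.84, SE 0.0877, adjusted p 4.31e-05 by limma). SLF1, at 1.035 Mb, and ARSK, at 1.972 Mb, went the other way, with log2 fold changes of -0.53 and -0.45, and the call of ARSK was lost in 6 of 17 alternatives. Upstream, the nearest listed coding genes were ADGRV1 at -3.054 Mb, MEF2C at -4.679 Mb and CCNH at -6.17 Mb. Their log2 fold changes were 0.87, 0.51 and 0.59, and that of MEF2C was not past the threshold in 4 alternatives, each of which left out 1 library. The largest changes in the window, chosen after their values were seen, were those of GLRX at 2.24 Mb, a log2 fold change of 1.51, and of ERAP1 at 3.225 Mb, -0.99, among genes with a mean of over 100 scaled counts.

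**Figure D4:**
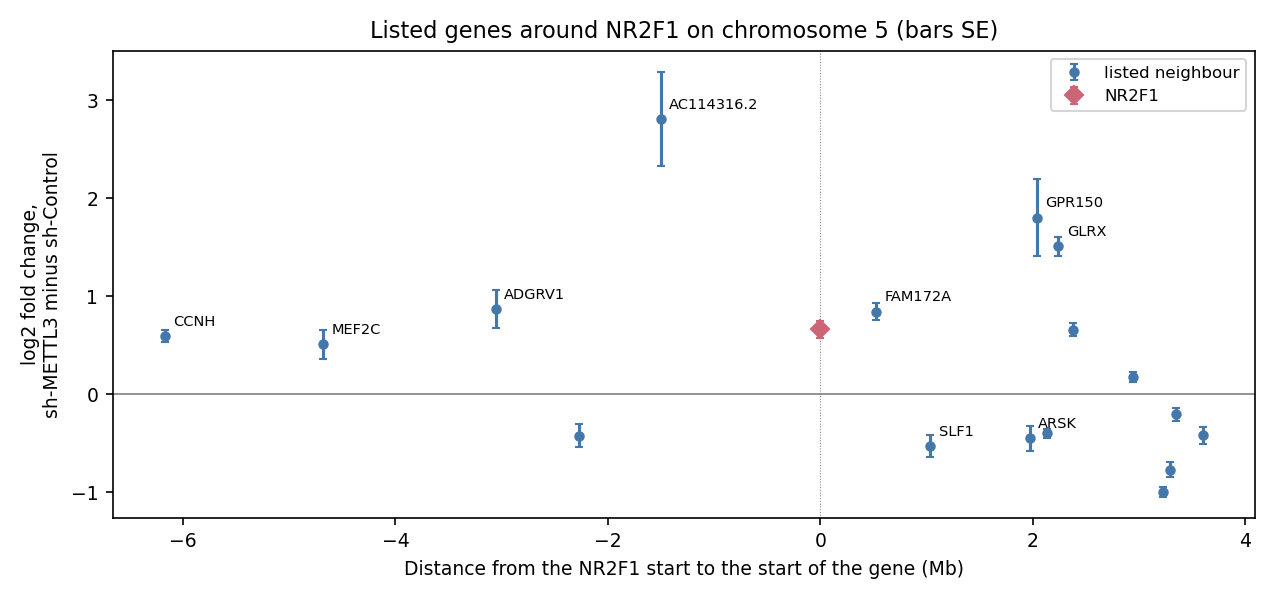
Log2 fold change of the listed genes around NR2F1 on chromosome 5 against the distance of their start from that of NR2F1 in Mb, with SE bars. Genes above and below 0 lie on both sides of NR2F1, whose own value is 0.66, and FAM172A at 0.528 Mb has 0.84.

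The genes most like NR2F1 over the 6 libraries were sought among 5724 listed protein-coding genes with a mean of at least 100 scaled counts, by the root mean square difference of log2 values after removing each gene's mean. NR2F1 itself lay at -0.44, -0.32 and -0.23 in sh-Control and at 0.18, 0.29 and 0.53 in sh-METTL3 on this scale. The nearest was WDR31, a WD-repeat gene on chromosome 9, with a root mean square difference of 0.0224 log2 units. It was followed by TMPRSS9, a serine protease gene, at 0.0319, and MXD4, a bHLH repressor of the MYC network, at 0.0424. PCBD2, a dimerization cofactor that also lies on chromosome 5, at 0.0456, and ZNF471, a zinc-finger gene, at 0.0462, completed the 5. MXD4 was the most abundant of them, at 2084, 2108 and 2186 scaled counts in sh-Control and 3071, 3223 and 3803 in sh-METTL3. All 5 had the same order of libraries as NR2F1. With Pearson correlation as the measure, WDR31 (r = 0.999 over 6 libraries) and TMPRSS9 (r = 0.996) were again the first 2, and RORA was the fourth. All these genes were listed for a difference between the same groups of libraries, so their likeness is a description and carries no test.

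**Figure D5:**
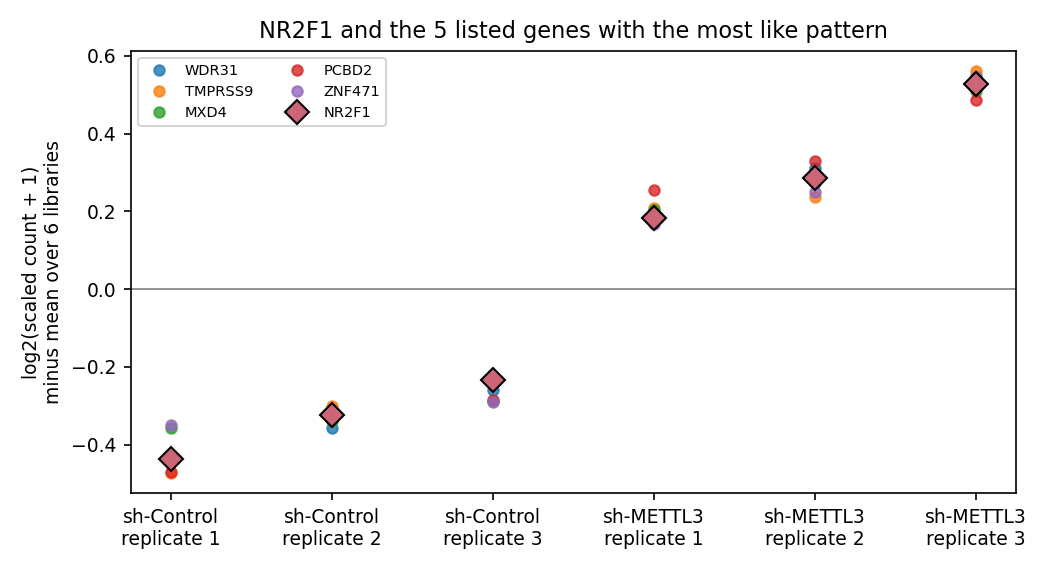
Log2(scaled count + 1) minus the gene's mean over the 6 libraries for NR2F1 (diamonds) and the 5 listed genes of most like pattern (circles), by library. All 6 genes lie below 0 in sh-Control, down to -0.44 for NR2F1, and above 0 in sh-METTL3, with the highest value in replicate 3.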

How the data were processed

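RNA was extracted with Trizol and libraries were made with an Illumina TruSeq RNA kit. The submitters' processing notes name HISAT2 2.0.5 and build hg38, while the study's methods name Cufflinks with RefSeq mRNAs, which does not match the Ensembl gene identifiers of the table. The read counter and its strand setting are not given in the sources used here. The signal deposited for each library is the read count of a gene divided by 1 size factor, and 100% of the values came out as whole reads (tolerance 0.01 read). Group means, fold changes and raw and adjusted p-values of the authors' test were deposited as well. The fold changes were not used. The p-values served only to show that all listed genes had been called at 0.05 and that 22977 genes had been tested, of which 33.8% are listed, so calls and shares describe the list and not the transcriptome. Total library depth is unknown. For all 7758 genes the coordinates and exonic length match GENCODE release 29, and 13 symbols turned into dates were replaced from it.

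The groups came from the sample labels. A limma fit (3.58.1, R 4.3.3) with a mean-variance trend and no covariates was made to log2(scaled count + 1) of all listed genes, a scale that understates changes of low genes. Benjamini-Hochberg adjustment was over 22977 tests. A test on raw counts had been set for a table of counts, and the unit led to limma. Alternatives were edgeR 4.0.16 with RLE, TMM or listed-total scaling or the authors' size factors, DESeq2 1.42.0, limma-voom, a pseudocount of 0.1, a mean of at least 50, no trend, adjustment over the listed genes alone, a replicate block and leaving out each library. The limma fit to log2(scaled count + 1) was tested on simulated data. Intervals of single libraries are exact Poisson intervals (95%).

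NR2F1 and the gene lists were chosen with earlier results of these data known. The genes named were NR2F1, METTL3, all listed nuclear receptors or genes named NR and a digit, the study's readouts, the 3 nearest listed coding genes on each side, up to 2 that rose and 2 that fell most in the coregulator, eye and dormancy lists, and the 5 of most like pattern. A few genes that fit this rule are counted but not reported singly. Transcript motifs were read from the longest coding transcript of each gene in GENCODE release 29 and promoters from RefSeq GRCh38.p14. Primer sequences came from the study's supplement.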

Additional observations from a re-analysis of the deposited data

How the results depend on the processing

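The higher level of NR2F1 in the sh-METTL3 cells kept its direction and its side of the threshold in all 17 alternatives. Its log2 fold change ranged from 0.57 without sh-METTL3 replicate 3 to 0.79 with edgeR and RLE factors or DESeq2, with an adjusted p between 1.25e-15 and 0.00734, and leaving out each library in turn gave 0.57 to 0.74. The RLE and DESeq2 scalings raised the median of all listed genes by 0.12 on the log2 scale, in the direction in which the value of NR2F1 moved. With DESeq2 6418 listed genes passed, 3704 higher and 2714 lower, in place of 7597, 3614 higher and 3983 lower. The counts for the nuclear receptors, coregulators, eye regulators and dormancy genes stayed at 16 to 17, 10 to 14, 7 and 3 to 4. Over the same alternatives 6274 to 7747 of all listed genes passed, the fewest with the filter at a mean of 50. The count of chromosome 5 neighbours was 12 to 15 when a library was left out, and 4 in place of 16 with a window of 2 Mb, which by construction holds fewer genes. Of the 5 genes most like NR2F1, 2 were also among the 5 by Pearson correlation. ESRRG could not be fitted with the filter at a mean of 50, which leaves it out.

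The deviations of same-numbered libraries from their group means correlated at 0.0036, 0.0193 and -0.015, so no shared shift was seen over the listed genes. Such low correlations cannot show whether the cultures were paired. With the replicate block, the value of NR2F1 was again 0.66 (limma, adjusted p 1.99e-05), and 7481 genes passed. OCLN lost its call there (limma, adjusted p 0.0637). The planned ratio of NR2F1 to NR2F2 within a library could not be computed, because NR2F2 is not listed.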
